A study of Mus musculus with 8 samples.

Results

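The 9 genes described here are Klf2 and 8 cell-surface proteins that place a B lymphocyte within lymphoid tissue, namely S1pr1, S1pr2, Ccr7, Cxcr4, Cxcr5, Ccr6, Gpr183 and Itgb7. They were chosen by function, as homing receptors and the quiescence factor Klf2, out of 21938 protein-coding genes that could be placed on a chromosome. The rule uses no measured value, but the choice was made with earlier results of these data known. For each gene the 50 kb bin that holds its annotated start was taken with the 2 Mb on either side, and chromatin contacts in that window were compared between 4 stages of mouse B cell activation. What was measured is contact between stretches of DNA. No transcript level of any of the 9 genes was measured in these libraries.

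In situ Hi-C, in which DNA ends that lie close together in a fixed nucleus are joined and sequenced as read pairs, was performed on 8 libraries in 4 groups of 2. Naive B cells were isolated by removal of other cells, labelled with the division dye CTV and cultured with 25 µg/ml LPS of Salmonella typhosa origin, a bacterial product that activates B cells without T cell help. Every group carried that treatment and no unstimulated group was used, so the earliest stage, 3 h of LPS, stands as the start of the series. The second stage was 10 h of LPS. Both stages at 33 h held cells that had not yet divided. One was labelled imminent division and, as the 3 h and 10 h cells, came from C57BL/6 mice. The other was labelled pre-S and came from C57BL/6 FUCCI mice, whose fluorescent cell-cycle reporters were used to sort cells before DNA synthesis. Strain and stage cannot be told apart for the pre-S group. The study's methods give male animals, young adults on a C57BL/6 Pep3b background, for all experiments. Each library is a bulk average over sorted cells, so a change in every cell and a change in some of them cannot be told apart. The methods name 2 biological replicates per stage, and nothing in the labels ties a replicate number to a shared animal or day. The precision of all values below is limited by n = 2.

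Recirculating B cells enter and leave lymphoid organs by following chemical gradients. Klf2 is a zinc finger transcription factor of quiescent lymphocytes that is known to drive S1pr1 and other trafficking genes and is lost on activation. S1pr1 reads sphingosine 1-phosphate and draws cells out into blood and lymph, whereas S1pr2 reads the same lipid and holds germinal centre B cells in the follicle. Cxcr5 brings B cells into the follicle towards Cxcl13, Ccr7 draws them to the border with the T zone towards Ccl19 and Ccl21, and Gpr183 (EBI2) positions them along oxysterol gradients in the outer follicle. Cxcr4 is the receptor for Cxcl12 in bone marrow and the germinal centre dark zone, Ccr6 is the receptor for Ccl20 at mucosal sites, and Itgb7 is the beta subunit of the gut-homing integrin that binds Madcam1.

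The loci stand on GRCm38 as follows. Klf2 starts at position 72319033 of chromosome 8 on the forward strand, in a bin running from 72299885 to 72349026 that also holds the start of Gm10282. S1pr1 starts at 115715072 of chromosome 3 on the reverse strand, and only 23 protein-coding starts lie within 2 Mb of its bin. S1pr2 starts at 20976781 of chromosome 9, reverse strand, in a bin shared with Dnmt1, the maintenance DNA methyltransferase. Ccr7 starts at 99155077 of chromosome 11, reverse strand, and has the most crowded window, with 169 starts. Cxcr4 starts at 128592293 of chromosome 1, reverse strand, and has the emptiest, with 17. Cxcr5 starts at 44561877 of chromosome 9 on the reverse strand in GENCODE vM21, the annotation used throughout. RefSeq places its start at 44526444, in the neighbouring bin, and both are given where the choice changes a result. Ccr6 starts at 8236043 of chromosome 17 on the forward strand, and Gpr183 at 121965195 of chromosome 14 on the reverse strand. Itgb7 starts at 102231944 of chromosome 15, reverse strand, in a bin shared with Csad and Zfp740. Its window held fewer usable bins, 73 against 79 or 80 at the other members. A bin holds all of its genes, so contacts of the Klf2, S1pr2 and Itgb7 bins cannot be given to those genes alone.

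Promoter sequences of 6 of the 9 genes were matched by symbol in a table of RefSeq promoters on GRCm38.p6. The promoters of the regulator, of S1pr2, the one of both sphingosine 1-phosphate receptors with a match, and of Ccr6, with the largest fall in normalised contacts, are shown because they stand inside the bins that the results turn on. Each runs 5′ to 3′ in the direction of transcription, and capitals mark CACCC or its reverse complement GGGTG, the short box known to be read by Klf family factors. They lie at chr8:72318812-72319111 (forward strand), chr9:20976744-20977043 (reverse) and chr17:8235793-8236092 (forward).
Klf2: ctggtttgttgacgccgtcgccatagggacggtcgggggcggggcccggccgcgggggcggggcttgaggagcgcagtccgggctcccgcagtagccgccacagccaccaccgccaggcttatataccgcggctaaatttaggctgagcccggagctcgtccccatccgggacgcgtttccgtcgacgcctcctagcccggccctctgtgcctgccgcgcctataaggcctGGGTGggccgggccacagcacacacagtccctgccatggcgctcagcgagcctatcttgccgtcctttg
S1pr2: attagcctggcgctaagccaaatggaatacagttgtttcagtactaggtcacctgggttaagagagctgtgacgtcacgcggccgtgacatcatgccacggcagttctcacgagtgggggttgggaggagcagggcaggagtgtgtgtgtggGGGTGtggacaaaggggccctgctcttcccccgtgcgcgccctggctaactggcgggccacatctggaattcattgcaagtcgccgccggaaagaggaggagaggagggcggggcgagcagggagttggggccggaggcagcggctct
Ccr6: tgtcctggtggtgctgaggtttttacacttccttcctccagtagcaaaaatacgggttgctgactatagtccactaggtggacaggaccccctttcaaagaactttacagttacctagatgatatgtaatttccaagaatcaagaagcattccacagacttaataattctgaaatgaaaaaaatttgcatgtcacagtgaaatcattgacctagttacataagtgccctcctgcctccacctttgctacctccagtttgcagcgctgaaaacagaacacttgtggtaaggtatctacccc
The box was searched on both strands. It was found 1 time each in the Klf2, S1pr2 and Cxcr4 promoters, 4 times in Itgb7, and in neither Ccr6 nor Gpr183, while 57.5% of all 32851 promoters of this length held at least 1. The G+C content was 69.3% at Klf2, 62% at S1pr2 and 42.3% at Ccr6. The MboI site GATC, at which the Hi-C libraries were cut, was in none of these 3 promoters and in 48.0% of all promoters, so reads at these promoters come from cuts nearby. A match is a description of the letters and no evidence of binding.

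The libraries held 88703088 to 218945191 read pairs, of which 70.9% to 75.1% joined 2 ends on the same chromosome, and 878 to 4835 pairs joined a member's start bin to the 2 Mb around it. Replicate 2 of imminent division stood apart in its share of reads on the sex chromosomes. Its X share was 3.74% and its Y share 0.0490%, against 2.39% to 2.84% and 0.0804% to 0.123% in the other 7 libraries. A higher X and a lower Y share go against animals that were all male, and which animals gave this library was not tested. The counts of called members in the comparisons of summed contacts, insulation and boundary ratio, and of called partner bins, are also given without it. The share of all features called without it does not stand beside these counts. The start regions of all 7 B cell marker genes examined lay in the active A compartment in every library, but so did those of all 5 T cell and all 4 myeloid markers, and 1 of 5 loci of liver and neurons, so compartment sign does not check the labelled cell type here.

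At 33 h most of these loci kept a smaller part of their contacts within their own neighbourhood than at 10 h, while most start bins in the A compartment kept a larger part. The share of a start bin's same-chromosome read pairs that ended within 2 Mb was lower in both imminent division libraries than in both 10 h libraries at 7 of the 9 genes. Of 9799 start bins in the A compartment, 6.97% were lower in that way and 84.6% were higher without overlap. In pre-S 7 of the 9 genes were again lower, against 11.1% of these start bins, and 60.2% of them were higher. Most members began from a higher share than the background. The mean at 10 h was 71.3% at Gpr183, 66.0% at Klf2 and 48.8% at Ccr6, where the median of start bins in A was 49.1%. The shares of start bins that moved are thus not from bins of like starting share. These values are a description, and no test of them was run.

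At Klf2 the share was 65.4% and 67.8% in the 3 h libraries, 67.2% and 64.8% at 10 h, then 60.5% and 59.2% at imminent division, and 61.9% and 60.3% in pre-S. All 4 libraries at 33 h lay below all 4 earlier ones. Cxcr4 had 57.2% and 61.3% at 3 h, 61.0% and 59.8% at 10 h, then 54.2% and 54.0% at imminent division and 55.6% and 56.0% in pre-S, with the same separation. Cxcr5 went from 69.1% and 66.8% at 10 h to 63.7% and 62.3% at imminent division and 64.1% and 63.3% in pre-S. Among the loci whose share was lower, these 3 had the widest differences. Gpr183, the most locally folded of the 9, went from 71.6% and 71.0% to 68.9% and 68.7%, and to 68.9% and 68.3% in pre-S. S1pr1 went from 54.3% and 54.0% to 52.2% and 50.5%, S1pr2 from 65.5% and 63.7% to 62.9% and 62.1%, and Ccr7 from 59.4% and 58.1% to 57.4% and 56.9%. The differences at these 3 receptors were smaller, and still without overlap between 10 h and imminent division. At Ccr7 the 3 h libraries, at 55.7% and 56.5%, lay below both imminent division libraries, so its share there was lower than at 10 h only. Over start bins in A the median share was 49.5% and 48.8% at 10 h with 55.2% and 54.8% at imminent division and 52.2% and 50.7% in pre-S.

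Itgb7 and Ccr6 were the members that did not follow. The Itgb7 share was 63.2% and 61.3% at 10 h and 68.3% and 67.4% at imminent division, higher like that of most start bins in A, and stood at 65.3% and 64.9% in pre-S. Ccr6 had 49.4% and 48.3% at 10 h and 50.5% and 48.1% at imminent division, which overlap. From 3 h to 10 h no member was lower without overlap and 3 were higher, against 3.27% and 73.4% of start bins in A. Between the 33 h stages 2 members were lower at imminent division than in pre-S and 1 was higher, against 1.98% and 79.4%.

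**Figure D1:**
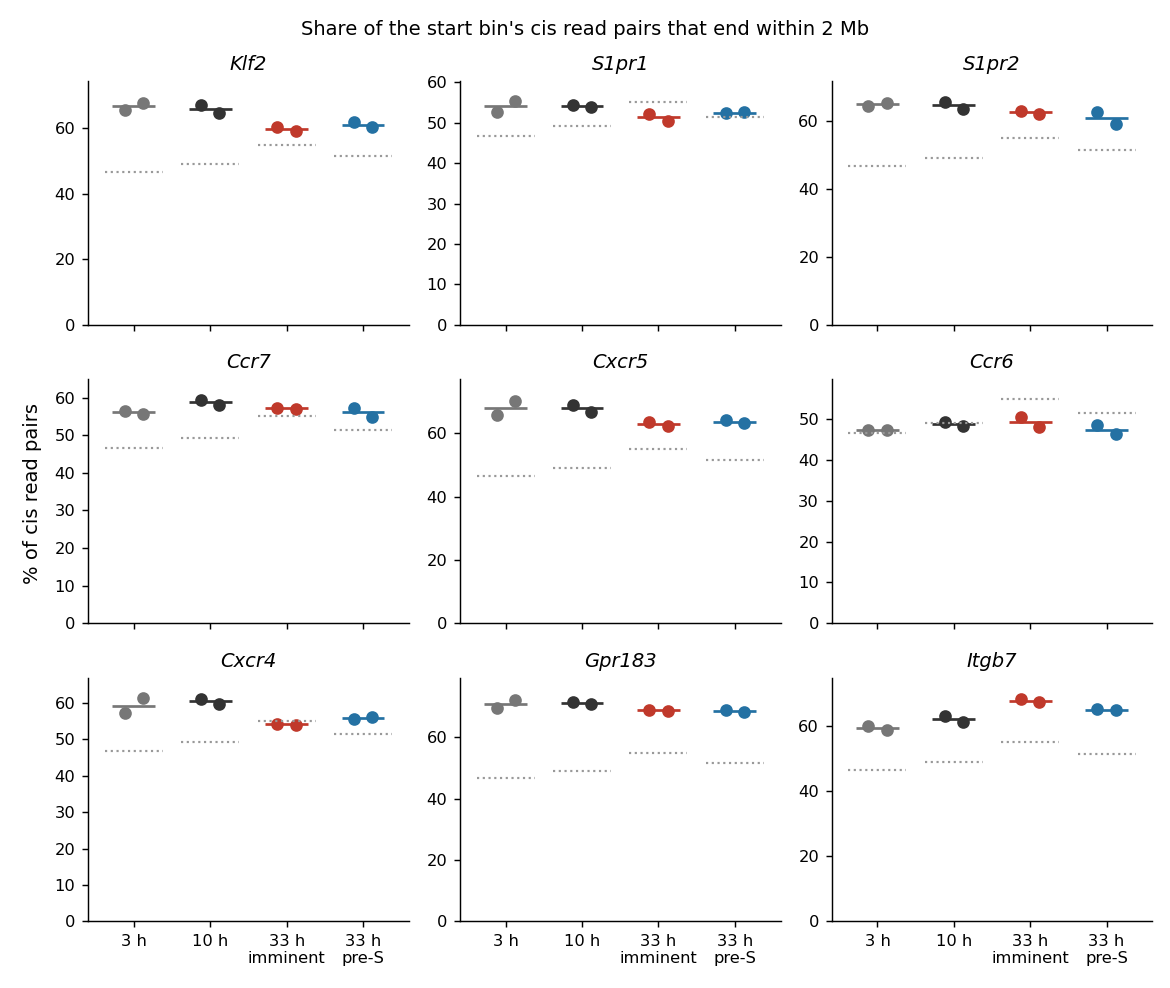
Share of each start bin's same-chromosome read pairs (percent, vertical axis) that ended within 2 Mb, with 1 point per library, a solid line at the mean of each group, a panel for each gene, and a dotted line at the group's mean of the median over start bins in the A compartment. At Klf2 the 4 libraries at 33 h lie between 59.2% and 61.9%, below the 4 earlier ones, while the dotted line is higher at 33 h than at 10 h.

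The number of pairs within the window was then compared after a fit that removes the trend of each library with abundance (edgeR quasi-likelihood test, over 13274 start bins). Contacts of 5 members fell at imminent division compared with 10 h, which is 5 of 9 against 22% of all start bins called lower and 44.2% called in either direction. The members that fell were Ccr6, Ccr7, Klf2, S1pr2 and Cxcr5, and none rose. The fall is relative to the fitted trend. As a share of each library's same-chromosome pairs, the median start bin rose by 0.20 on the log2 scale. On that scale these 5 members had differences from -0.18 (Ccr7) to -0.03 (Cxcr5), with S1pr2 at -0.05. With a filter modelled on that of the study, and pairs summed over the whole chromosome, 3 members were called in this comparison, 1 of them higher. In pre-S compared with 10 h, Ccr6, Ccr7 and Klf2 fell, 3 of 9 against 18.1% called lower and 37.3% called in all. The median over the 9 genes was -0.12 on the log2 scale at imminent division and -0.08 in pre-S, where the median over all start bins was 0.00 in both. From 3 h to 10 h no member was called, 1 had an unadjusted p under 0.05, and 0.0678% of start bins passed.

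Ccr6, the Ccl20 receptor, had the largest fall in normalised contacts, the scale with loess offsets. Its normalised contacts were 1687 and 1562 at 3 h, 1604 and 1513 at 10 h, then 1143 and 1249 at imminent division, and 1137 and 1172 in pre-S. The 2 stages at 33 h lay clear of the 2 earlier ones and overlapped each other. The fall from 10 h was 22.9% at imminent division (log2 difference -0.38, SE 0.051, edgeR adjusted p = 2.35e-05) and 25.8% in pre-S (-0.43, SE 0.056, adjusted p = 5.41e-05). The size at imminent division depends on the setting. It was -0.24 with TMM factors and -0.05 as a share of each library's same-chromosome pairs, where Ccr7 was lowest (-0.18). With a filter modelled on the interaction filter of the study it was -0.12 without a call (edgeR adjusted p = 0.0581). That setting sums pairs at all distances on the chromosome, so it changes the window as well as the filter.

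Ccr7, which guides activated B cells to the T zone border, had 2645 and 2495 normalised contacts at 3 h, 2658 and 2508 at 10 h, then 2142 and 2128 at imminent division, and 2275 and 2123 in pre-S. Again no library at 33 h reached the level of an earlier one. The log2 difference from 10 h was -0.27 (SE 0.042, edgeR adjusted p = 7.33e-05) at imminent division and -0.23 (adjusted p = 9.37e-04) in pre-S. At the Klf2 bin the normalised contacts were 2701 and 2758 at 3 h, 2651 and 2531 at 10 h, then 2323 and 2263 at imminent division, and 2276 and 2350.0 in pre-S. The fall from 10 h was 11.5% at imminent division (log2 difference -0.18, SE 0.038, edgeR adjusted p = 0.00121), and the pre-S difference was -0.16 (SE 0.041, adjusted p = 0.00488). The pre-S call at Klf2 was lost without replicate 1 of 10 h and without replicate 1 of pre-S.

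S1pr2 had 2411 and 2340.1 normalised contacts at 10 h and 2187 and 2069 at imminent division (log2 difference -0.16, SE 0.044, edgeR adjusted p = 0.00636). Its pre-S libraries, at 2104 and 2287, also lay below 10 h, but the difference of -0.11 did not pass (adjusted p = 0.061). Cxcr5 had 2548 and 2414 at 10 h, then 2285 and 2261 at imminent division (-0.12, SE 0.040, adjusted p = 0.0164) and 2309 and 2438 in pre-S, where the groups overlapped. Both calls were lost without replicate 1 of 10 h and without replicate 2 of imminent division.

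The remaining 4 receptors were not called in either comparison with 10 h. Cxcr4 had 3163 and 3065 normalised contacts at 10 h and 2877 and 2949 at imminent division, a separation without a call (log2 difference -0.09, edgeR adjusted p = 0.052). Gpr183 had 2698 and 2884 against 2546 and 2643 (-0.11, adjusted p = 0.0583), and Itgb7 2324 and 2294 against 2194 and 2142 (-0.09, adjusted p = 0.0688). S1pr1, the egress receptor and best known Klf2 target, had 2528 and 2494 at 10 h and 2641 and 2569 at imminent division, and was the member with a difference above 0 (0.05, adjusted p = 0.349). With TMM factors, another scaling between libraries, its difference was -0.09 (adjusted p = 0.117). Counted as a share of each library's same-chromosome pairs, S1pr1 was at 0.11 and the median start bin at 0.20 on the log2 scale at imminent division. All 9 members lay below that median, S1pr1 by the least and Ccr7 by the most (-0.09 and -0.38 relative to it). Imminent division and pre-S differed at 1 member, Itgb7 (2194 and 2142 against 2350.1 and 2454, log2 difference -0.15, SE 0.041, adjusted p = 0.0484), with 4.06% of start bins called, and that call was lost in 5 of 8 fits that each leave out 1 library. Klf2 at imminent division was not called under 2 settings. These were bin coverage in the offsets (-0.12) and the filter modelled on that of the study, over all distances on the chromosome (-0.03). Without replicate 2 of imminent division, 3 members were called lower than at 10 h and none differed from pre-S.

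**Figure D2:**
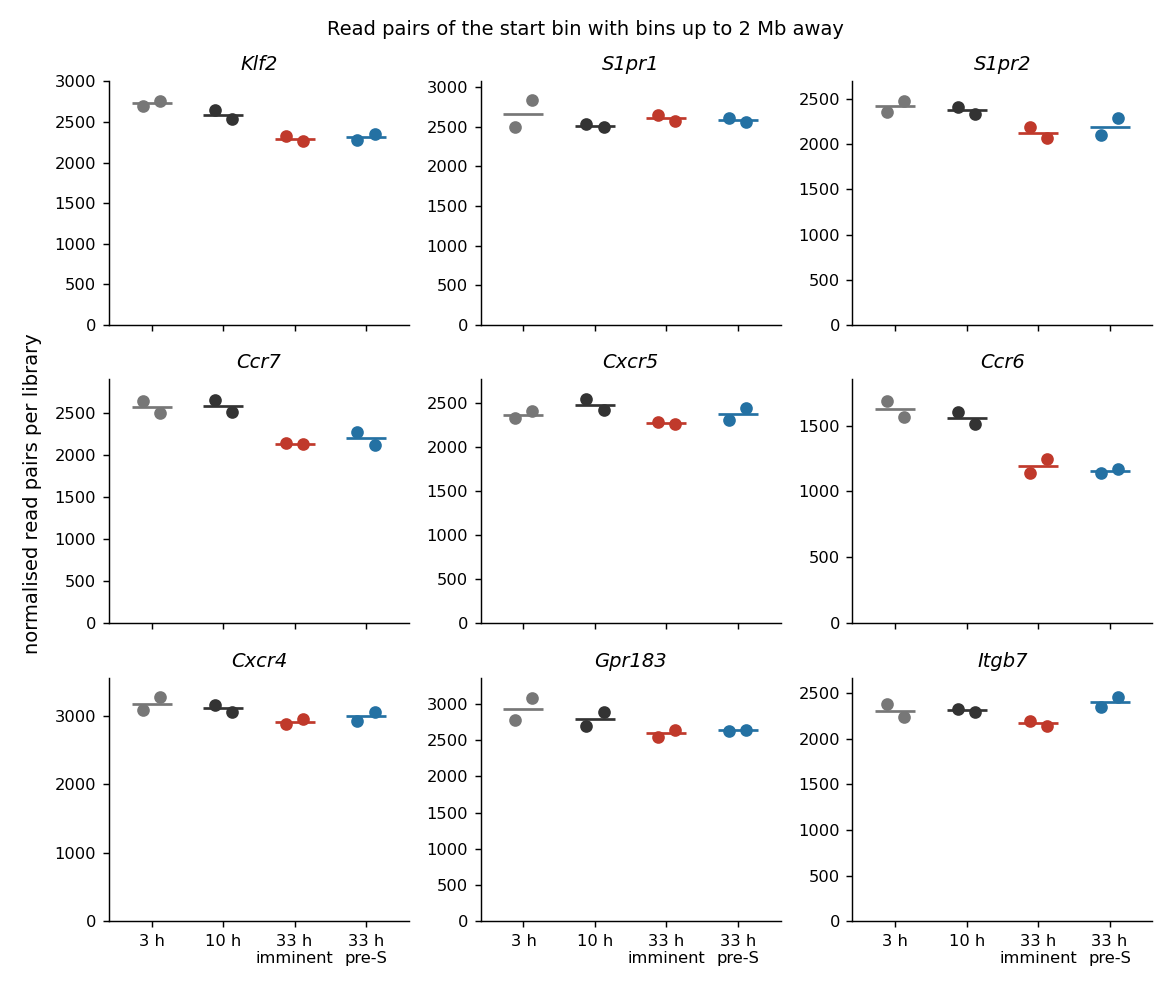
Normalised read pairs joining each start bin to the 2 Mb on either side (vertical axis, from 0, its top differing by panel), with 1 point per library in the 4 groups, a line at the mean of each group and a panel for each gene. The 4 Ccr6 libraries at 33 h sit between 1137 and 1249, below the lowest earlier library at 1513.

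The make-up of the window by distance is given without a test. The share of window pairs that joined the start bin to its directly adjacent bins went at Ccr6 from 51.3% and 49.5% at 10 h to 43.6% and 44.4% at imminent division, at Cxcr5 from 42.9% and 40.8% to 34.6% and 37.3%, and at S1pr1 from 36.1% and 33.2% to 28.3% and 31.5%. Over start bins in A the median of that share was 25.3% and 24.5%, and 22.8% and 23.3%. Not every member moved this way. S1pr2 went up, from 29.7% and 27.0% to 30.4% and 30.5%, and the Itgb7 means were 29.0% and 28.9%. In pre-S the share at Cxcr5 had a mean of 41.9%, as at 10 h, and that at S1pr1 a mean of 33.7% against 34.6%. The band from 1 to 2 Mb took a larger part at imminent division, without overlap, at 4 members. It held 5.2% and 5.5% of the Cxcr4 window at 10 h and 8.7% and 8.4% at imminent division, 1.8% and 2.8% of the Cxcr5 window against 4.9% and 5.0%, and 6.7% and 7.1% of the Ccr6 window against 9.1% and 8.8%. The step at Ccr7 was small, from 13.0% and 13.3% to 13.5% and 13.8%. Over start bins in A the median part of this band went the other way, from 12.7% and 13.2% to 11.8% and 11.7%. The share of start bins that separate in this band was not computed, so the count of 4 has no background.

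Contacts between a start bin and single partner bins were tested with the same kind of model, over all pairs of bins that passed the abundance filter of the study. Of the 363 pairs that joined a member to a bin within 2 Mb, 27 were called at imminent division against 10 h, 26 of them lower and 1 higher. That is 7.44% of the members' pairs, against 3.37% of pairs near any start bin called and 2.54% called lower. All 9 members lie in the A compartment, whereas the shares and medians over pairs near start bins pool bins in and outside A. Those near start bins in A alone were not computed. In pre-S 8 of the 363 pairs were called, all lower, against 0.548% called and 0.397% called lower. Without replicate 1 or 2 of imminent division 9 and 14 pairs were called at that stage, and without replicate 1 or 2 of 10 h 8 and 5. In pre-S 1 or 2 pairs were left when a library of 10 h or of pre-S was left out. The 2 lists shared 5 pairs, 18.5% of the first and 62.5% of the second, and both comparisons use the same 10 h libraries. The median over all 363 pairs was -0.24 on the log2 scale at imminent division and -0.32 in pre-S, against -0.05 and -0.10 over all pairs near start bins. No pair was called between 10 h and 3 h, where 34 had an unadjusted p under 0.05 and 0.00114% passed near any start bin, nor between the 33 h stages, where 37 did and 0.34% passed. S1pr1 had no called pair among 29 tested.

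At Ccr7, 6 pairs fell. The one with the smallest adjusted p joined it to the bin that holds the starts of Nr1d1, the circadian repressor Rev-erb alpha, and Msl1, 400 kb away. Its read counts in the order of the libraries were 35 and 36 at 3 h, 43 and 47 at 10 h, then 38 and 35 at imminent division, and 17 and 20 in pre-S, before scaling to depth. The log2 difference was -1.16 (SE 0.24, edgeR adjusted p = 0.00127) at imminent division and -1.06 (adjusted p = 0.0398) in pre-S. Contacts with the bin of Csf3, Med24 and Thra, 450 kb away, fell by 1.07 at imminent division (adjusted p = 0.00486), and those with Cdc6 and Rara, at 250 kb, fell in both stages (-0.47 and -0.62). The pair with the next smallest adjusted p joined Ccr7 to the bin of Neurod2 and Ppp1r1b, 850 kb away, with 22 and 16 reads at 10 h against 7 and 12 at imminent division (log2 difference -1.86, adjusted p = 0.00215). On the other side 2 nearer bins fell, at 100 and 150 kb (-0.41 and -0.47).

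At S1pr2 also 6 pairs fell at imminent division, all on 1 side, at 350 to 1000 kb towards higher coordinates. The pair with Yipf2 and Timm29, at 600 kb, had 45 and 57 read pairs at 10 h, then 46 and 51 at imminent division, and 16 and 21 in pre-S. After scaling the log2 difference was -0.92 (SE 0.22, edgeR adjusted p = 0.00629) at imminent division and -1.23 (SE 0.27, adjusted p = 0.00607) in pre-S. The bin of Epor, the erythropoietin receptor, with Swsap1 and Rgl3 (-1.36), was among the others.

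Contacts of the Klf2 bin with 3 partners fell at imminent division. Ankle1, at 900 kb, had 20 and 38 read pairs at 10 h, then 21 and 24 at imminent division and 15 and 19 in pre-S (log2 difference at imminent division -1.24, SE 0.30, edgeR adjusted p = 0.00741). B3gnt3 with Fcho1, at 600 kb, and Sin3b, which encodes a corepressor scaffold, at 400 kb on the other side, were the further ones (-0.91 and -1.21). In pre-S a nearer bin was called, that of Rab8a and Hsh2d at 150 kb, with 170 and 204 read pairs at 10 h and 126 and 75 in pre-S (-0.56, SE 0.14, adjusted p = 0.0183). None of the 4 was called in both stages.

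Of the rest, contacts of Cxcr5 fell with Fxyd6 and Fxyd2 at 800 kb (-1.41) and with the sodium channel beta genes Scn2b and Scn4b at 550 kb (-0.93). Those of Ccr6 fell with the bin of Tagap, a lymphocyte GTPase activator, and Rsph3a at 300 kb (-0.71). In pre-S they fell with Sft2d1 and Prr18 at 100 kb (-0.56). Gpr183 contacts fell with a bin that overlaps Pcca and Ggact and with the bin of the Tmtc4 start (-1.06 and -1.10). They fell in pre-S with the bin of Ubac2, 100 kb away (-0.51). Itgb7 contacts fell with the bin of Map3k12, Tarbp2 and Npff at 300 kb (-0.67) and with that of Atp5g2 at 450 kb (-0.76). These are single bins of 50 kb, and the gene that stands in a bin is not shown to be the partner.

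Cxcr4 differed in kind. Its 4 partners that fell at imminent division, at 100 to 250 kb, hold no protein-coding gene, and 2 of them fell in pre-S as well (both -0.46). The bin at 200 kb had 235 and 278 read pairs at 10 h, then 240 and 318 at imminent division, and 144 and 144 in pre-S (log2 difference at imminent division -0.41, SE 0.10, edgeR adjusted p = 0.0117). It was also the member with a pair that rose. That pair joined the Cxcr4 start bin to the bin at chr1:130349278-130399967, 1800 kb away, which overlaps Cd55b. Its read pairs numbered 5 and 2 at 3 h, 4 and 6 at 10 h, then 33 and 28 at imminent division, and 9 and 11 in pre-S. The rise over 10 h was 4.43-fold (log2 2.15, SE 0.43, edgeR adjusted p = 7.53e-04), on 10 read pairs in all at 10 h. Without replicate 2 of 10 h the adjusted p was 0.0666, and DESeq2 gave this pair no adjusted p. The neighbours of that bin were looked up after its value was seen. The bin next to it, which holds the start of Cd55b, had 4 and 10 read pairs at 10 h and 17 and 27 at imminent division, and the bin after that, with Cd55, a complement regulator, 12 and 16 against 17 and 34. These counts are before scaling to depth, and the libraries held 116957398 and 153258311 read pairs at 10 h against 180325399 and 218945191 at imminent division. Over all 9 genes, 14 pairs were called at imminent division without its replicate 2, 13 of them lower. DESeq2 called none of the members' pairs at imminent division or in pre-S.

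**Figure D3:**
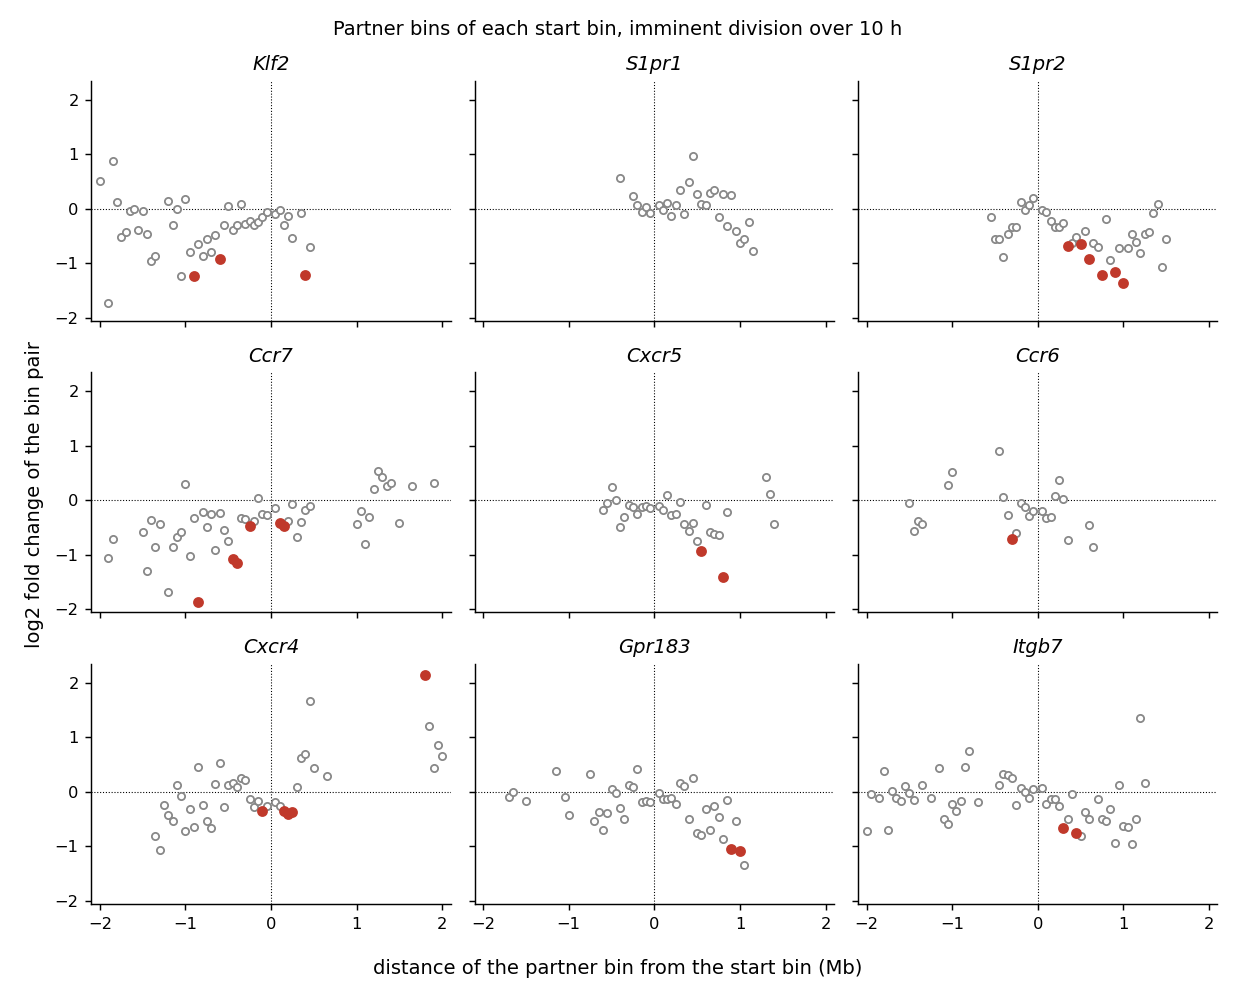
Log2 difference in read pairs at imminent division from 10 h (vertical axis) against the distance of the partner bin from the start bin (Mb, horizontal axis), with 1 point per tested pair and a panel for each gene; filled red points passed an adjusted p of 0.05. Red points lie below 0 apart from the Cxcr4 pair at 1800 kb.

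The insulation score gives the mean contact across a bin within 500 kb, on the log2 scale and centred on the library's median. A lower score means that fewer contacts span the bin. It fell at all 9 genes in both comparisons with 10 h (limma), against 33.8% of bins called lower (58.7% called) at imminent division and 35.8% (61.2% called) in pre-S. Start bins in A were mostly called lower themselves, 72.5% and 76.4% of them, so the count of members is near that background and only the size of the differences is read here. The median of the 9 differences was -0.59 at imminent division, where the median start bin in A had -0.29, and -0.50 in pre-S, where it had -0.28. Most members stood on a local peak of the score at 10 h, as given below, so these medians are not from bins of like height.

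At Klf2 the score was 1.60 and 1.27 at 3 h, 1.46 and 1.42 at 10 h, then 0.63 and 0.70 at imminent division, and 0.85 and 0.99 in pre-S. Both stages at 33 h were below all earlier libraries, and imminent division was below pre-S. The difference from 10 h was -0.78 (SE 0.084, limma adjusted p = 4.05e-06) at imminent division and -0.52 (adjusted p = 1.94e-04) in pre-S. S1pr2 showed the widest fall, from 1.05 and 1.08 at 10 h to 0.21 and 0.27 at imminent division and 0.43 and 0.60 in pre-S (-0.82, SE 0.085, and -0.55). Ccr7 went from 0.99 and 1.08 to 0.24 and 0.28, and to 0.50 and 0.52 in pre-S (-0.77 and -0.52). At the other end S1pr1 went from 1.461 and 1.429 to 1.064 and 1.120, and to 1.153 and 1.142 in pre-S (-0.35 and -0.30), and Itgb7 from 0.61 and 0.58 to 0.24 and 0.22, and to 0.14 and 0.26 in pre-S (-0.37 and -0.40). Cxcr5, Ccr6, Gpr183 and Cxcr4 had differences from -0.73 to -0.51 at imminent division, between these, and from -0.53 to -0.35 in pre-S, where the order of the members was not the same. The largest adjusted p of the 18 differences was 6.17e-04, and without replicate 2 of imminent division all 9 were still called lower there.

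Imminent division was lower than pre-S at Ccr7 (-0.25, limma adjusted p = 0.0329) and Ccr6 (-0.24, adjusted p = 0.0246), 2 of 9 against 9.59% of bins. Of start bins in A 10.9% were called and 6.34% were called lower. The Ccr7 call was lost in 6 and the Ccr6 call in 5 of 8 fits that each leave out 1 library, and with the replicate number as a block neither was left. From 3 h to 10 h none was called (0.462% of bins). When counts were first divided by each bin's interchromosomal coverage, 7 members were higher at 10 h than at 3 h (14.7% of bins were), and all 9 were lower at imminent division than at 10 h (31.8% of bins). In pre-S 3 were lower, namely S1pr2, Ccr7 and Cxcr5, against 28.5% of bins, while Ccr6 turned to 0.13 (adjusted p = 0.0598). On these divided counts all 9 were also lower at imminent division than in pre-S, from -0.63 at Ccr7 to -0.18 at Itgb7 (largest adjusted p = 0.0233). In that comparison 36327 of 46751 bins were called in either direction, and 38.3% were called lower. The shares on divided counts are over all bins. Those over start bins in A, where the members lie, were not computed, so these counts of members have no like background. The call of pre-S against 10 h thus depends on that choice at 6 of the genes.

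**Figure D4:**
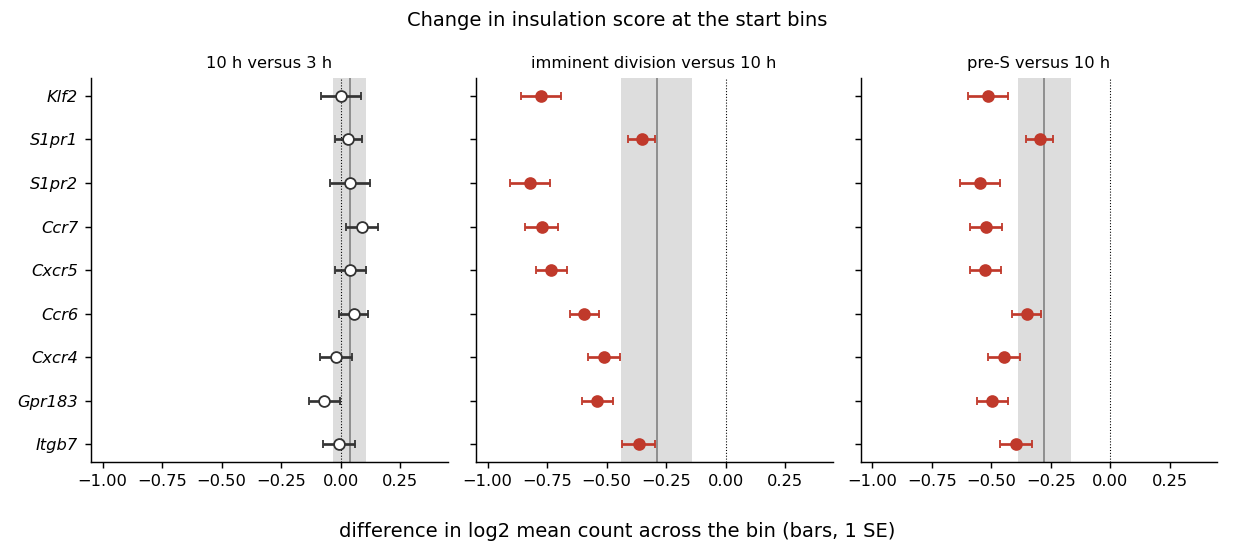
Difference in insulation score (log2 mean count, horizontal axis) of the 9 start bins (rows) in 3 comparisons (panels), with filled red points for calls at an adjusted p of 0.05, open points for the rest, bars of 1 SE, and the quartiles (grey band) and median (grey line) of start bins in A. At imminent division the 9 genes lie between -0.82 and -0.35, where the grey median is -0.29.

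Most of these starts stood on a local peak of the score, and the peak was lower at imminent division than at 10 h. Set against the 10 bins on each side, the start bin at 10 h stood 1.23 higher at S1pr1, 1.19 at Cxcr4, 1.09 at Ccr6 and 0.95 at Klf2, which is above 96.9% (Klf2) to 99.2% (S1pr1) of start bins in A. Cxcr5 (0.79), Gpr183 (0.61) and Ccr7 (0.50) were lower, and S1pr2 (0.21) and Itgb7 (0.19) barely stood out. At imminent division these heights were 0.87 at S1pr1, 0.82 at Cxcr4, 0.65 at Ccr6, 0.69 at Klf2, 0.63 at Cxcr5, 0.42 at Gpr183, 0.21 at Ccr7, 0.07 at S1pr2 and 0.09 at Itgb7. Each was lower than at 10 h without overlap of the libraries, 9 of 9 against 55.8% of start bins in A. The median height of start bins in A was 0.04 in both 10 h libraries, so this and the next shares are not from bins of like height. In pre-S 8 of 9 were lower against 51.3%, the exception being Ccr7, which stood at 0.52. From 3 h to 10 h 6 of 9 were lower against 33.9%, and between imminent division and pre-S 8 of 9 against 44.2%. No test of these heights was run.

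**Figure D5:**
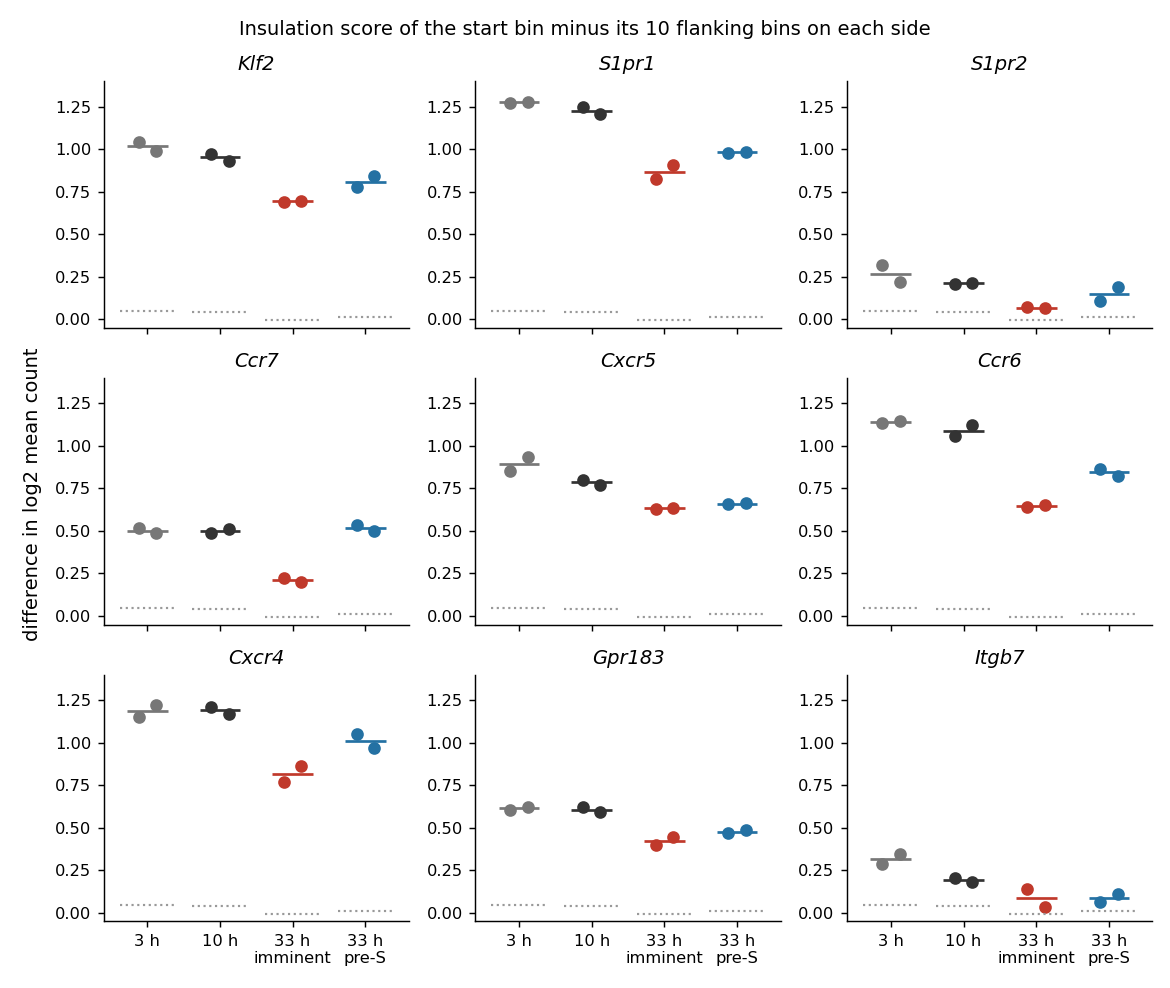
Height of the insulation score of each start bin over the mean of the 10 bins on each side (log2 units, vertical axis), with 1 point per library in the 4 groups, a solid line at the group mean and a panel for each gene; the dotted line is the median of start bins in A. The mean at S1pr1 goes from 1.23 at 10 h to 0.87 at imminent division, and that at Ccr7 is 0.52 in pre-S and 0.50 at 10 h.

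The boundary ratio asks to which side the contacts of a 100 kb region point, as the log2 of pairs reaching up to 1 Mb towards lower coordinates over pairs reaching as far towards higher ones. Against a 1.1-fold threshold (edgeR), 3 members passed at imminent division and 1 in pre-S, where 17.7% and 4.88% of regions did. Of regions with a start bin in A 30.8% and 7.74% passed, so the counts of members are near that background. Ccr6 passed in both, moving from -1.47 and -1.46 at 10 h to -0.95 and -1.06 at imminent division (0.45, SE 0.068, adjusted p = 8.56e-06) and to -0.99 and -1.17 in pre-S (0.39, SE 0.080, adjusted p = 0.00744), so that its contacts became less one-sided. S1pr2 moved the same way, from -1.03 and -1.10 to -0.80 and -0.78 (0.28, adjusted p = 0.00509). Cxcr4 stood near balance at 10 h, at -0.07 and -0.06, and tipped towards lower coordinates at imminent division, with 0.23 and 0.14 (0.24, adjusted p = 0.020). The Cxcr4 call was lost without either 10 h library or without replicate 1 of imminent division, the S1pr2 call without replicate 2 of 10 h, and the pre-S call of Ccr6 without replicate 1 of pre-S. Without replicate 2 of imminent division, 5 members passed at that stage, 4 of them upwards. S1pr1 was the most one-sided member, with ratios of -1.93 and -1.95 at 10 h and -1.67 and -1.83 at imminent division, without a call. Klf2 hardly moved, from 0.14 and 0.19 to 0.15 and 0.17 (difference -0.01, SE 0.052). Cxcr5 gave opposite signs at its alternative starts, -0.20 without a call at the GENCODE start and 0.35 (adjusted p = 4.50e-05) at the RefSeq start. No member passed from 3 h to 10 h (0.332% of regions) or between the 33 h stages (5.45%); without the fold threshold 1 passed in each.

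None of these loci left the active compartment. On a compartment score from the first principal component of 100 kb regions, where values above 0 mark A, all 9 members had scores of 1.00 to 1.45 in all 8 libraries. Small shifts within A passed the limma test at 1 member in each comparison at 33 h. Ccr7 went from 1.121 and 1.108 at 10 h to 1.028 and 1.018 at imminent division (-0.09, SE 0.025, adjusted p = 0.0239), where 25.4% of regions were called. Cxcr5 went from 1.070 and 1.097 to 1.177 and 1.205 in pre-S (0.11, SE 0.026, adjusted p = 0.0261), with 15.9% of regions called, and this call was lost at its RefSeq start (0.06). Ccr6 was lower at imminent division, with 1.000 and 1.005, than in pre-S, with 1.102 and 1.066 (-0.08, SE 0.023, adjusted p = 0.0444), where 15.5% were called. Klf2 went from 1.116 and 1.123 at 10 h to 1.247 and 1.217 at imminent division and 1.183 and 1.259 in pre-S, with no overlap and no call (0.11, adjusted p = 0.0696). None was called from 3 h to 10 h (3.76% of regions). Of 8 fits that each leave out 1 library, 4 lost the call of Ccr7, 4 that of Cxcr5 and 6 that of Ccr6. Neither the Ccr7 nor the Ccr6 call was left without replicate 2 of imminent division.

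A wider list of 70 genes of lymphocyte trafficking and quiescence, the 9 members left out, was read on the same scale, and 68 had a value for summed contacts. At imminent division 12 rose and 22 fell against 10 h, with a median of -0.02, and in pre-S 9 rose and 14 fell. Over all start bins, 22.3% rose and 22.0% fell at imminent division, and 19.2% rose and 18.1% fell in pre-S, which is the background to read these and the following counts against. None was called from 3 h to 10 h. Among the 12 genes of integrins, selectin and their ligands, 4 rose and 4 fell at imminent division: Itga4, which pairs with Itgb7, rose by 0.32 on the log2 scale (edgeR adjusted p = 1.51e-05) and its ligand Vcam1 by 0.21, whereas the leukocyte integrin subunit Itgb2 fell by 0.24. Of the 10 genes of egress and sphingosine 1-phosphate handling, 1 rose and 3 fell, among them the receptor S1pr4 (-0.32) and the kinase Sphk2 (-0.26). Of 14 genes of G protein signalling 3 rose and 5 fell, with Rgs1, a brake on chemokine receptors, at 0.27 and Arhgef1, which acts below S1pr2, at -0.32.

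Of the 11 other chemokine receptors tested 2 rose and 3 fell, and the gut-homing receptor Ccr9 rose by 0.22. Of 5 ligands 2 fell and none rose at imminent division, and 1 rose and 1 fell in pre-S, where Cxcl12, the ligand of Cxcr4, rose by 0.23 (adjusted p = 6.33e-04). Of 3 genes of oxysterol synthesis 1 rose and 1 fell at imminent division, and 1 fell in pre-S. Of 13 quiescence factors 1 rose and 4 fell at imminent division, while in pre-S 3 rose and 2 fell. Klf6 rose in both (0.31 and 0.31), Klf4 rose in pre-S (0.24), and Slfn2 fell in pre-S (-0.26). Itga4 (0.29), Arhgef1 (-0.32) and S1pr4 (-0.29) had differences in pre-S close to those at imminent division, with the same 10 h libraries behind both. Between the 33 h stages Ccr9 was higher at imminent division (0.15, adjusted p = 0.0498) and Klf4 lower (-0.14, adjusted p = 0.0481).

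The start bins whose normalised contacts followed Klf2 most closely over the 8 libraries, by the root mean square of the log2 deviation after each bin's mean was removed, were those of Blnk (0.0204), Rhob (0.0224), Pim3 (0.0249), Tspan32 (0.0259) and Gprc5b (0.0260), among 13273 others. Blnk encodes a B cell receptor adaptor and Pim3 a kinase. The Blnk bin had 2306 and 2268 normalised contacts at 10 h and 2014 and 1927 at imminent division. None of the other 8 members was among these 5, but a list of 5 out of 13273 bins is too short to show whether they follow Klf2.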

How the data were processed

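In situ Hi-C was cut with MboI. The authors deposited 1 matrix of raw counts per library, read pairs per pair of 50 kb bins, made per the study's methods on mm10 with diffHic, cutadapt, bowtie2 and Picard: duplicates, dangling ends and long fragments were removed, replicates were not pooled, and nothing was normalised. Duplicates were marked by position, since the reads carry no molecular identifiers, so counting error is a lower limit of the error.

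The matrices number their bins, and coordinates were rebuilt on GRCm38 by giving each MboI fragment to the 50 kb step that holds its midpoint, which gave the 53357 bins of the files over 66 sequences. Of 48088 autosomal bins, 756 were left out for over 10% unknown bases or coverage more than 4-fold from the median, and 47332 were kept. The list of blacklisted regions used in the study was not used here. Genes were placed by GENCODE vM21.

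For each start bin the read pairs to bins up to 2 Mb away were summed, the bin itself left out. Sums of at least 200 in 2 libraries (13274 start bins) and all bin pairs more than 4-fold over the interchromosomal background were tested with edgeR 4.0.16 (robust quasi-likelihood, 1-way layout over all 8 libraries, loess offsets, split at 1.5 Mb for bin pairs). Compartment scores (first principal component at 100 kb) and insulation scores (500 kb square) were tested with limma 3.58.1, and boundary ratios with glmTreat at 1.1-fold. The Benjamini-Hochberg threshold was 5% over all features of a comparison. The SE of an edgeR difference is its log2 size over the root of F. Normalised contacts are counts divided by the loess offsets, at the geometric mean depth. DESeq2 1.42.0 was an alternative. R 4.3.3, Python 3.11.15, numpy 2.4.6, pandas 2.3.3 and scipy 1.17.1 were used. Each model was tested on simulated data with planted changes. Sequences came from RefSeq tables.

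The 9 genes and all gene lists were chosen with earlier results of these data known. Text names the members, up to 3 called partner bins per member, comparison and direction by smallest p, up to 5 list genes likewise, and the 5 start bins nearest to Klf2. A partner bin that this rule names is not reported here.

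Groups and replicate numbers came from the labels. Same-numbered libraries did not deviate together in every pair of groups: the correlation of their deviations from the group means ran from -0.44 to 0.14 for summed contacts, from -0.76 to 0.25 for insulation and from -0.24 to 0.19 for compartment, so the numbers were not used as pairs. Between the stages at 33 h it was above 0 in all 3 measures (0.14, 0.25 and 0.03). Replicates differed beyond counting noise, with a chi-square per start bin of 3.28 at 3 h, 1.21 at 10 h, then 4.53 at imminent division and 1.55 in pre-S. Alternatives covered normalisation, filters, distance limits, bin size, test, replicate block and leaving out each library; the RefSeq start of Cxcr5 was an alternative chosen after seeing the data.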

Additional observations from a re-analysis of the deposited data

Results flagged for a closer look

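Between imminent division and pre-S, the test of the difference passed at 3 genes in 4 measurements. Of all features 4.06% were called for summed contacts, 15.5% for compartment and 9.59% for insulation, against 1, 1 and 2 of the 9 genes. Summed contacts of the Itgb7 bin were lower at imminent division (-0.15 on the log2 scale, edgeR adjusted p = 0.0484). The compartment score of Ccr6 was lower (-0.0813, limma adjusted p = 0.0444), as were the insulation scores of Ccr7 (-0.25, limma adjusted p = 0.0329) and Ccr6 (-0.24, limma adjusted p = 0.0246). Of 8 fits that each leave out 1 library, 5 lost the Itgb7 call, 6 the compartment call of Ccr6, 6 the insulation call of Ccr7 and 5 that of Ccr6. With the replicate number as a block, 0 of these calls were left. Mouse strain and stage cannot be told apart in this comparison, nor in that of pre-S with 10 h.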

How the results depend on the processing

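Over 20 counts of called members (5 measures in 4 comparisons), 197 of 280 alternative settings left the count within 1.5 times and 83 moved it. Of 469 settings for single called members over 36 results, 401 kept call and direction, 67 kept the direction without the call, and 1 reversed: the insulation score of Ccr6 in pre-S versus 10 h went to 0.13 with counts divided by bin coverage. The cause of the changes was not tested. Apart from insulation divided by bin coverage, the share of all features called under each setting, or without each library, is not given. A moved count thus does not tell a change at the members from a change over all features.

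Summed contacts at imminent division versus 10 h gave 8 called members with TMM factors (main 5). They gave 3, 1 of them higher, with the filter modelled on that of the study, which sums pairs at all distances on the chromosome. Pre-S versus 10 h (main 3) gave 7 with TMM factors and 6 with adjacent bins left out. Imminent division versus pre-S (main 1) gave 0 with TMM factors, DESeq2, bin coverage in the offsets, the filter modelled on that of the study or the replicate block. The comparison of 10 h versus 3 h (main 0) gave 1 with bin coverage. Partner bins at imminent division (main 27) gave 58 with TMM factors, 15 at 2-fold over background, 11 with offsets per distance class and 0 with DESeq2. In pre-S (main 8) these gave 23, 1, 1 and 0, and bin coverage gave 1. Between the 33 h stages (main 0) bin coverage gave 6. Compartment (main 1 at imminent division, in pre-S and between these) gave 3, 4 and 2 in 250 kb bins, and 2 and 2 after quantile normalization in the first 2. Pre-S gave 0 with Cxcr5 at its RefSeq start. Insulation divided by bin coverage gave 7 at 10 h versus 3 h (main 0), 3 in pre-S versus 10 h (main 9) and 9 between the 33 h stages (main 2). Called in the members' direction were 14.7%, 28.5% and 38.3% of all bins in these 3 comparisons, and the shares over start bins in A were not computed. The boundary ratio without a fold threshold gave 1, 6, 4 and 1 (main 0, 3, 1 and 0), and 500 kb on each side gave 0 in pre-S.

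With the replicate block, imminent division versus pre-S gave 0 for summed contacts, compartment and insulation, and no other count moved by over 1.5 times.

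When each library was left out in turn, called members ranged, in the order 10 h over 3 h, imminent division over 10 h, pre-S over 10 h and last the difference of the 33 h stages, as follows. For summed contacts the ranges were 0 to 1, 3 to 8, 2 to 4 and 0 to 1. For compartment they were 0 to 0, 0 to 2, 0 to 2 and 0 to 1. For insulation they were 0 to 2, 9 to 9, 9 to 9 and 0 to 5. For the boundary ratio they were 0 to 0, 1 to 5, 0 to 1 and 0 to 0, and for partner bins 0 to 0, 5 to 28, 1 to 11 and 0 to 0. With 2 libraries per stage, a difference that was not called is not shown to be absent.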

Other observations

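The bins around the far Cxcr4 contact also held more read pairs at imminent division, as raw counts with no scaling to depth and no test. At 1750 kb from the Cxcr4 start bin the counts were 0 and 7 at 3 h, 1 and 3 at 10 h, then 13 and 12 at imminent division, and 4 and 3 in pre-S. At 1700 kb they were 1 and 1, 2 and 0, 8 and 8, and 0 and 2. Neither bin holds a protein-coding gene. At 1650 kb, in a bin that overlaps Thsd7b, they were 0 and 2, 1 and 1, 5 and 10, and 3 and 0.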
